A study of Homo sapiens with 21 samples.

Results

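The heterogeneous nuclear ribonucleoproteins (hnRNPs) and the splicing regulators that work beside them were followed as 1 group of 32 genes among the 60671 genes of the count table. The group was defined by gene name and function: 20 genes whose symbol starts with HNRNP, the poly-pyrimidine and poly-cytosine binding proteins PTBP1, PTBP3, PCBP1 and PCBP2, and the RNA-binding regulators ELAVL1, RBM12, RBM39, RBMX, TARDBP, TRA2A, TRA2B and SYNCRIP. The rule itself uses no measured value, but the members were chosen with earlier results of these data known. All 32 were found in the table and all 32 passed the filter on low counts (at least 1 CPM, the count scaled to library size, in at least 8 of 21 libraries), which left 14012 genes for testing.

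The libraries were poly-A enriched RNA from 2 human cell lines, in 7 groups of 3 replicates. OCI-AML3, a line derived from an acute myeloid leukaemia, was harvested untreated at 0 h, after 4 h in DMSO (the solvent) or tunicamycin, and after 24 h in DMSO or tunicamycin. HEK293T, an embryonic kidney line that carries the SV40 large T antigen, was harvested after 24 h in DMSO or tunicamycin. Tunicamycin was used at 1 μg/mL in both lines. It blocks N-linked glycosylation, so that unfolded proteins build up in the endoplasmic reticulum (ER) and the unfolded protein response (UPR) is switched on. The series asked how RNA levels and splicing respond to that stress. Each line is a single culture model, and the labels do not say whether the replicates were separate cultures, so p-values measure the spread between these libraries.

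hnRNPs coat nascent transcripts in the nucleus and influence which splice sites are used, how the RNA is cleaved, and when it leaves for the cytoplasm. Many repress exons by binding silencer sequences, where they compete with serine/arginine-rich (SR) proteins that promote exon inclusion. Several exist as close relatives with overlapping targets, and several control their own RNA level through exons that send the transcript to decay. The values here are RNA levels of the genes, and they hold no information on protein, location in the cell or phosphorylation.

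Total counts ran from 13838480 to 19961819 per library, with a median of 16657733. The lowest count of any member in any library was 578, and counting error is part of the spread between replicates. HSPA5, the ER chaperone BiP, was at 704 ± 26.2 CPM (SD, n = 3) in DMSO and 6870 ± 164 CPM in tunicamycin at 4 h in OCI-AML3. Its log2 fold change was 3.29 there and 2.70 in HEK293T at 24 h (edgeR, adjusted p = 6.8e-21 and 2.9e-19). The leukaemia line carried PTPRC, SPI1, CD33, LYZ and CSF3R at 54 to 467 CPM and MPO at 0.98 to 1.66 CPM, all 6 at 0 to 0.269 CPM in HEK293T. HEK293T carried LIN28B and NEFL at 41 to 115 CPM and PAX2 and L1CAM at 0.64 to 1.58 CPM, all 4 at 0 to 0.287 CPM in OCI-AML3. Between the 3 DMSO libraries at 4 h and the untreated libraries no gene was called (edgeR, 0.0% of genes higher and 0 members called). At an unadjusted p under 0.05, 1160 genes and 1 member passed there, DESeq2 called 16 genes, limma 0, and edgeR 95 with no filter, 15 with the trend of fold change with GC content and length removed and 12 without 4 h DMSO replicate 1. Libraries did not overlap for 1494 genes, 6 of them members, all lower in DMSO.

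The 32 members together took 1.78% of scaled counts in OCI-AML3 with DMSO at 4 h and 1.95% in HEK293T with DMSO at 24 h. Their summed level was 17785 ± 151 CPM in DMSO and 16148 ± 343 CPM in tunicamycin at 4 h (SD, n = 3). At 24 h in OCI-AML3 the sums were 15946 ± 267 CPM in DMSO and 13454 ± 200 CPM in tunicamycin, and in HEK293T they were 19487 ± 123 and 17666 ± 107 CPM. In each of the 3 pairs the highest tunicamycin library lay below the lowest DMSO library. Divided by the length of all annotated exons, HNRNPA1 was the most abundant member of both lines in DMSO at 24 h, at 313 CPM per kb in OCI-AML3 and 362 CPM per kb in HEK293T. HNRNPLL was the least abundant, at 7.9 and 7.64 CPM per kb. Divided by the longest transcript in its place, HNRNPA1 kept the first rank in both lines (509 and 588 CPM per kb), while the lowest in OCI-AML3 was then PTBP3, followed by HNRNPLL at 11.3 CPM per kb. CPM are shares of a library, so less of an RNA per cell and fewer cells that hold it cannot be told apart.

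Promoter sequence is shown for the 3 members that fell furthest at 4 h, since they moved together and by similar amounts, which for RBM12 holds for its own counts and not once overlapping genes are added (-0.26). RefSeq windows (GRCh38.p14, 250 bases before to 50 after each start) were found for 28 of the 32 members, 40 windows in all. They were not found for HNRNPA1, TRA2A, RBM39 and ELAVL1. The windows shown are chr20:35664851-35665150 on the minus strand for RBM12, chr1:11012404-11012703 on the plus strand for TARDBP, and chr10:68331443-68331742 on the plus strand for HNRNPH3, the first of its 3 windows. Capitals mark matches, on either strand, to the motifs described next.
RBM12: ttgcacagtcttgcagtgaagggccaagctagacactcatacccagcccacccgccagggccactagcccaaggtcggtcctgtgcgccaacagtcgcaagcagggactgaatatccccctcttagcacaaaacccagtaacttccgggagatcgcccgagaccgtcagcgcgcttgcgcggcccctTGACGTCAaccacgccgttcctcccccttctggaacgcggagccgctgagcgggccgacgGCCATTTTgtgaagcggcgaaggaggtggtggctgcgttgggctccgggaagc
TARDBP: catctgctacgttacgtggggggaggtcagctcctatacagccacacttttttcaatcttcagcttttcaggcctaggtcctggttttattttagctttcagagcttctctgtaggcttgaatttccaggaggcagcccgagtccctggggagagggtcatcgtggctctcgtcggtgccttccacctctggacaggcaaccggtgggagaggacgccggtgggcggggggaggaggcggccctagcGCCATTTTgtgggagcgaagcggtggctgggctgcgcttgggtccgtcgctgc
HNRNPH3: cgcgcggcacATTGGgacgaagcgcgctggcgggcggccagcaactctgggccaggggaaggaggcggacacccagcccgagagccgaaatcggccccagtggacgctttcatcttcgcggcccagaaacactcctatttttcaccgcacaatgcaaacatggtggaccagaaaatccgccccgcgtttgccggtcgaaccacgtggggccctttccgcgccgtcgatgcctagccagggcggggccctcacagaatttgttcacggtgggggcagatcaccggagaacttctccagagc

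Motifs of stress-responsive factors were counted in the members' windows and in all windows. TGATGNAA, the letters of the element bound by ATF4 with a C/EBP partner, was in 0 of the 40 windows and in 3.62% of all 35116 windows. The ER stress element, CCAAT followed by any 9 bases and CCACG, was in 0 of 40 and in 0.0769% of all windows. TGACGTCA, the cAMP response element, was in 1 of 40, that of RBM12, and in 1.85% of all windows. The 5 letters CCAAT, which also begin the ER stress element, were in 21 of 40 windows against 34.6% of all. GCCATNTT, the core bound by YY1, was searched after it was seen in the sequences of RBM12 and TARDBP. It was in 7 of 40 windows, those of TARDBP, HNRNPD, HNRNPC, PTBP1, HNRNPM, HNRNPUL1 and RBM12, and in 6.58% of all. Both strands were searched, and a match is a run of letters, not a bound site.

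At 4 h of tunicamycin in OCI-AML3, 13 members fell and 2 rose. The falls were led by HNRNPH3, RBM12 and TARDBP, each with a log2 fold change between -0.84 and -0.82, and the rises were HNRNPLL and PCBP2. Throughout, a gene is called where the edgeR quasi-likelihood test, with Benjamini-Hochberg adjustment over all 14012 genes, gave an adjusted p not above 0.05, and of those genes 18.9% were lower and 18.5% higher in this comparison. The median log2 fold change of the members was -0.14, against -0.02 for all genes tested. Libraries of the 2 groups did not overlap for 21 members, 16 of them lower in tunicamycin, where 46.3% of all genes did not overlap. No member passed the additional threshold of a log2 fold change beyond 1, which 4.92% of genes passed.

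**Figure D1:**
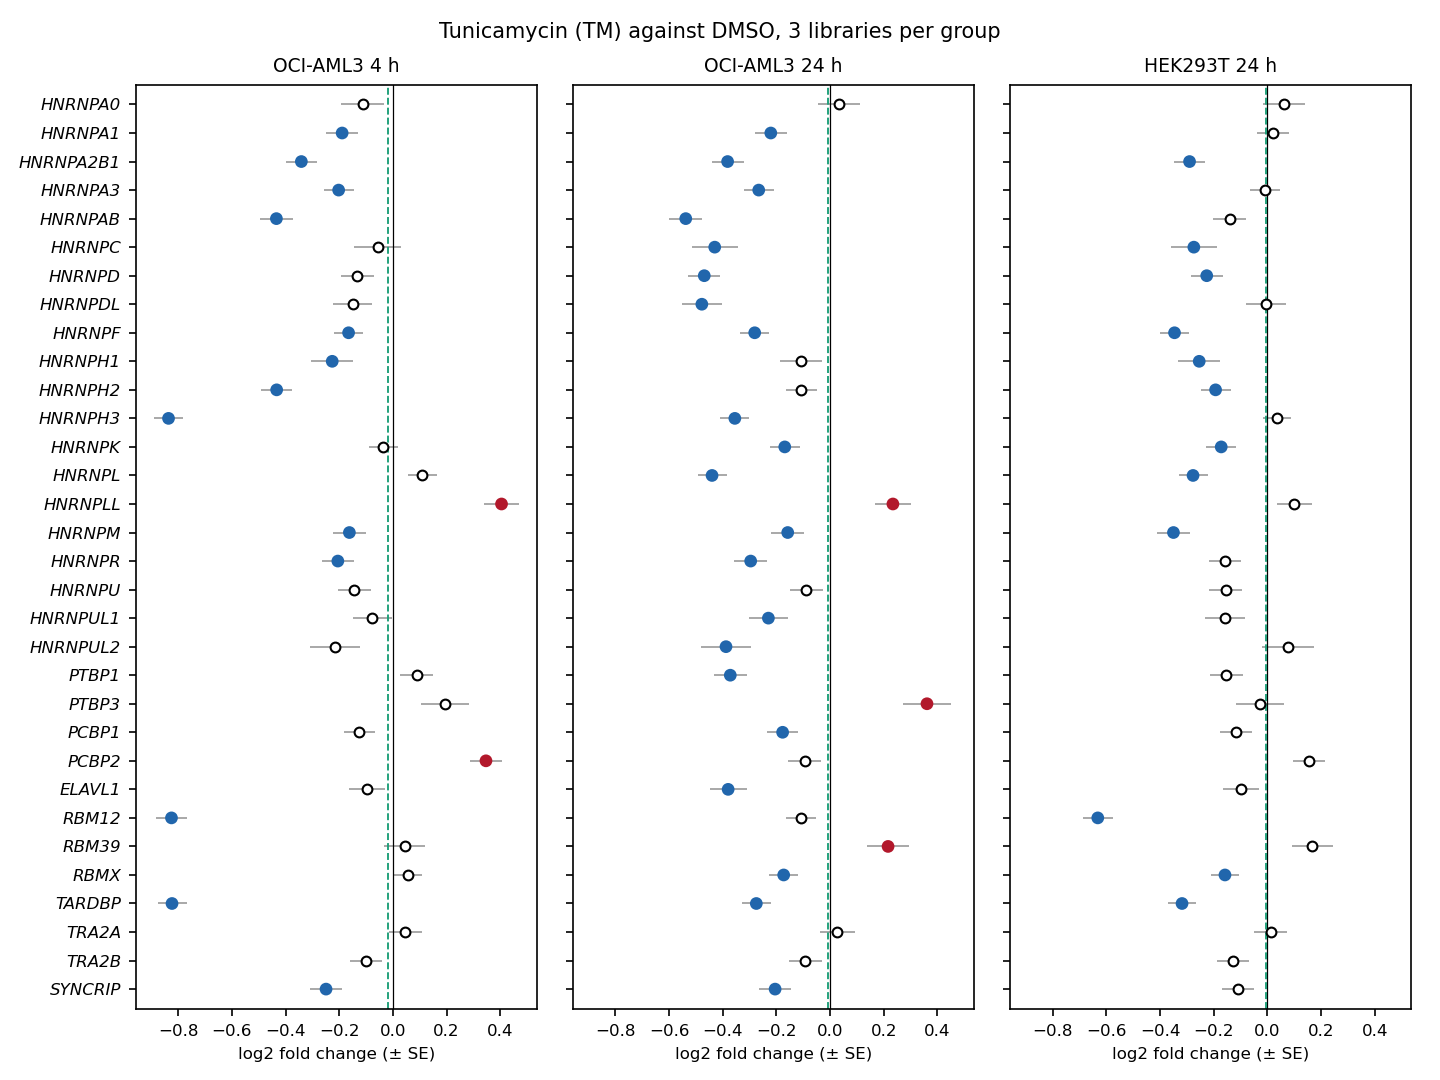
Log2 fold change (x axis, ± SE) of each of the 32 members (y axis) for tunicamycin against DMSO in 3 comparisons of 3 against 3 libraries. Filled points passed the edgeR test (blue lower, red higher), open points did not, and the dashed line is the median of all genes tested. Most points lie left of the dashed line in every panel, and HNRNPH3, RBM12 and TARDBP stand furthest left at 4 h, at -0.84, -0.82 and -0.82.

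HNRNPH3, a small relative of the G-tract binding proteins HNRNPH1 and HNRNPF, was at 173, 181 and 183 CPM in the DMSO libraries at 4 h and at 94.1, 100 and 106 CPM in tunicamycin. The groups lay far apart, and the log2 fold change was -0.84 ± 0.055 (SE; edgeR, adjusted p = 3.4e-11). At 24 h its values were 165, 160 and 155 CPM in DMSO and 124, 123 and 128 CPM in tunicamycin (-0.35 ± 0.054, edgeR, adjusted p = 1.3e-05). HEK293T held more of it and showed no such gap. Its values there were 296, 304 and 314 CPM in DMSO and 306, 311 and 321 CPM in tunicamycin, which overlap (0.04 ± 0.053, edgeR, adjusted p = 0.68). The difference between the lines was itself called, at 0.39 ± 0.076 on the log2 scale (edgeR, adjusted p = 0.00062). HNRNPH3 lies at chr10:68331174-68343193 on GRCh38.

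RBM12, a nuclear protein with several RNA recognition motifs, was at 163, 173 and 172 CPM in DMSO at 4 h and at 101, 89.9 and 96.5 CPM in tunicamycin. That is a log2 fold change of -0.82 ± 0.056 (edgeR, adjusted p = 6.1e-11). The gap was nearly closed at 24 h in the same line, where DMSO stood at 136, 127 and 128 CPM and tunicamycin at 119, 122 and 120 CPM (-0.11 ± 0.056, edgeR, adjusted p = 0.11). The controls were themselves lower at 24 h than at 4 h (-0.38 ± 0.055, edgeR, adjusted p = 9.8e-06). In HEK293T at 24 h the gap was wide again. DMSO stood at 221, 215 and 233 CPM and tunicamycin at 145, 142 and 145 CPM (-0.63 ± 0.055, edgeR, adjusted p = 7.4e-09). RBM12 lies at chr20:35648925-35664956 on GRCh38 and shares 575 exonic bases with CPNE1 on the same strand, so reads from the shared exons can be split between them. CPNE1 had log2 fold changes of 0.14, -0.46 and 0.08 in the 3 comparisons. With the counts of its overlapping genes added, RBM12 had -0.26, -0.32 and -0.39, all called, and neither the change between the times (-0.06), the difference between the lines (-0.07) nor the fall of the controls (0.04) was called.

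TARDBP encodes TDP-43, which binds UG-rich RNA, represses cryptic exons and limits its own RNA through its last exon. It stood at 338, 343 and 358 CPM in DMSO and 199, 187 and 201 CPM in tunicamycin at 4 h (-0.82 ± 0.054, edgeR, adjusted p = 3e-11). At 24 h the values were 219, 211 and 225 CPM in DMSO and 179, 173 and 189 CPM in tunicamycin (-0.28 ± 0.054, edgeR, adjusted p = 2e-04). In HEK293T they were 363, 366 and 371 CPM in DMSO and 286, 297 and 299 CPM in tunicamycin (-0.32 ± 0.053, edgeR, adjusted p = 9.2e-05). Its groups did not overlap in any of the 3 comparisons, and its DMSO level in OCI-AML3 also fell between 4 and 24 h by 0.66 on the log2 scale. TARDBP lies at chr1:11012344-11030528 on GRCh38.

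**Figure D2:**
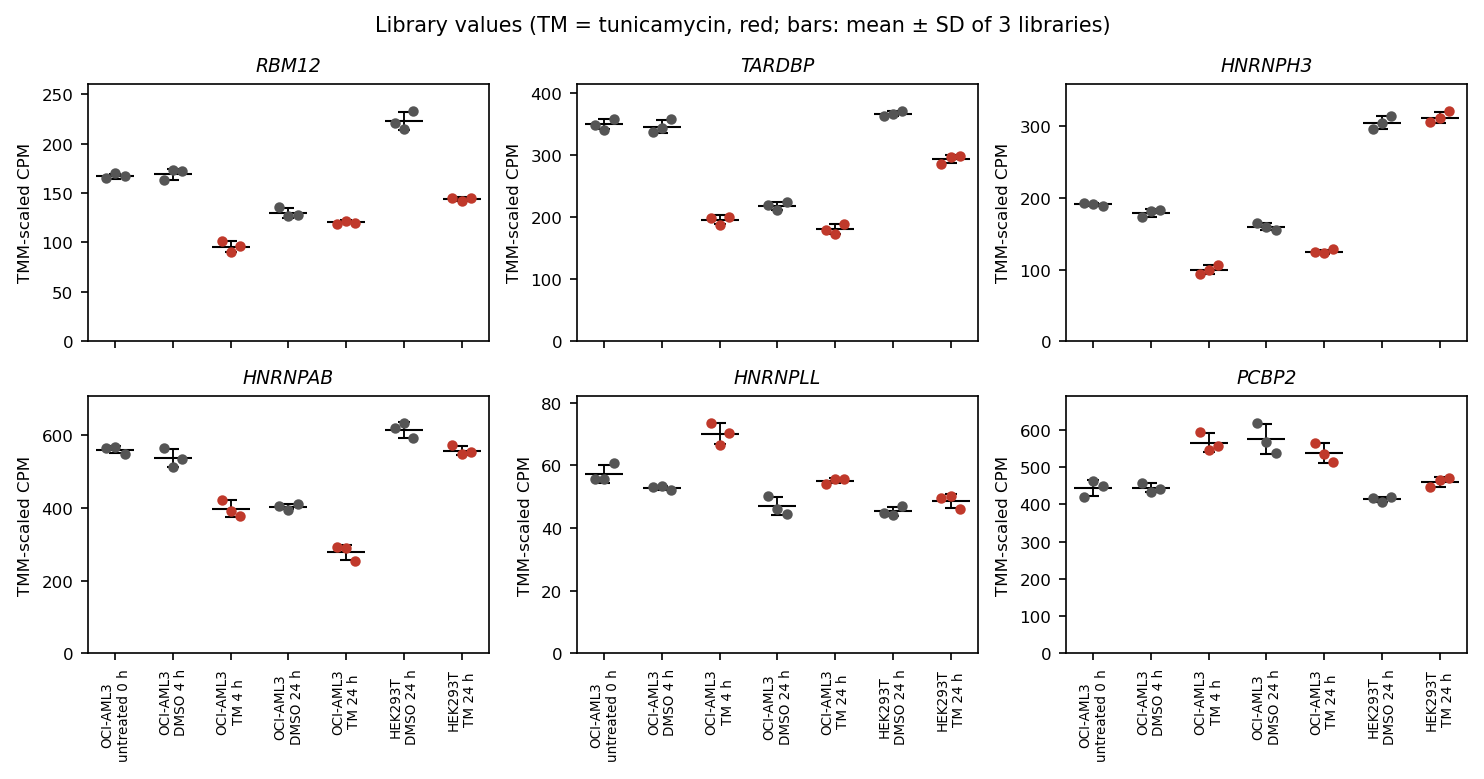
TMM-scaled CPM (y axis, from 0) of 6 members in each of the 21 libraries, by group (x axis), with tunicamycin libraries in red and the mean ± SD of 3 libraries as bars. RBM12, TARDBP and HNRNPH3 drop to about 96, 196 and 100 CPM at 4 h, HNRNPAB is lowest in tunicamycin at 24 h, and HNRNPLL and PCBP2 are higher in tunicamycin at 4 h.

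Among the A/B type proteins, which bind AG-rich and AU-rich elements, HNRNPA2B1 fell in all 3 comparisons, HNRNPAB, HNRNPA3 and HNRNPA1 fell in OCI-AML3, and HNRNPA0 was not called. HNRNPAB fell at both times in OCI-AML3. Its libraries held 564, 514 and 536 CPM in DMSO and 423, 393 and 378 CPM in tunicamycin at 4 h, then 406, 395 and 411 against 292, 289 and 254 CPM at 24 h. The log2 fold changes were -0.43 ± 0.062 and -0.54 ± 0.062 (edgeR, adjusted p = 6.9e-06 and 2.9e-07), with no overlap at either time. In HEK293T it stood at 621, 633 and 592 CPM in DMSO and 572, 548 and 554 CPM in tunicamycin (-0.14 ± 0.061, edgeR, adjusted p = 0.098). It was called lower there in 3 of 34 alternative settings. The difference between the lines was 0.40 ± 0.087 (edgeR, adjusted p = 0.0018), and 0.18 with the GC and length trend removed. HNRNPA2B1, which binds AG-rich motifs in pre-mRNA and microRNA precursors, fell by 0.34, 0.38 and 0.29 on the log2 scale. HNRNPA3 fell by 0.20 and 0.27 in OCI-AML3, and its value in HEK293T was -0.01. It shares 3509 exonic bases with NFE2L2 on the opposite strand, and strand use in the counting was not given in the sources used here. NFE2L2 rose by 0.52, 0.62 and 0.42 in the 3 comparisons, and the part of shared reads in the values of HNRNPA3 was not tested. HNRNPA0, a relative encoded by an intronless gene, had values of -0.11, 0.03 and 0.06.

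HNRNPA1, a repressor of exon inclusion and the most abundant member, changed little. In OCI-AML3 at 4 h it stood at 2200, 2130 and 2170 CPM in DMSO and 1900, 1890 and 1910 CPM in tunicamycin (-0.19 ± 0.059, edgeR, adjusted p = 0.015). At 24 h it stood at 2140, 1920 and 2240 CPM in DMSO and 1790, 1790 and 1820 CPM in tunicamycin (-0.22 ± 0.059, edgeR, adjusted p = 0.0037). The 24 h call was lost without DMSO replicate 1 or 3 (-0.16 and -0.12). HEK293T held 2430, 2440 and 2400 CPM in DMSO and 2460, 2430 and 2490 CPM in tunicamycin, which overlap (0.02 ± 0.059, edgeR, adjusted p = 0.85). Without TMM scaling, and with the GC and length trend removed, that value was -0.01 and -0.04. The 76 pseudogenes and like-named genes picked by its symbol held between 1.87% and 2.49% of the counts of HNRNPA1 and these genes together. Adding them to HNRNPA1 ended no call. HNRNPA1 lies at chr12:54280193-54287088 on GRCh38.

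At 24 h of tunicamycin in OCI-AML3 the falls were broader, with 21 members lower and 3 higher. The background was 27.7% of genes lower and 23.5% higher, and 6.32% past both thresholds, which no member reached. The median of the members was -0.21, against -0.01 for all genes. Of the 32 values 27 were negative, and libraries did not overlap for 23 members, 20 of them lower, where 52.8% of genes did not overlap. Of the members that fell at 4 h, 10 also fell here, and 11 were called lower at 24 h and not at 4 h, where 9.11% and 18.6% of all genes did so. Removing the GC and length trend took the members' median from -0.21 to -0.32 here, with 5 calls gained and 6 lost. The 2 comparisons use separate DMSO and tunicamycin libraries of the same line.

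HNRNPC, which forms tetramers on U-rich RNA and keeps Alu-derived exons out of messages, stood at 1370, 1040 and 1060 CPM in DMSO and 1130, 1150 and 1050 CPM in tunicamycin at 4 h, where the groups overlap. At 24 h it stood at 1350, 1430 and 1470 CPM in DMSO and 1070, 1150 and 940 CPM in tunicamycin (-0.43 ± 0.086, edgeR, adjusted p = 0.00027). The 4 h value was -0.06 with all libraries and 0.08 without DMSO replicate 1, which stood above the other 2. In HEK293T it stood at 1250, 1240 and 1270 CPM in DMSO and 1020, 1040 and 1050 CPM in tunicamycin (-0.27 ± 0.086, edgeR, adjusted p = 0.022). That call was lost without HEK293T DMSO replicate 1 or 3 or any 1 tunicamycin replicate, with values from -0.28 to -0.265. HNRNPC lies at chr14:21209136-21269494 on GRCh38.

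PTBP1, HNRNPL, HNRNPD and HNRNPDL shared the pattern of a clear fall at 24 h after a small value at 4 h in OCI-AML3. PTBP1, which binds CU-rich tracts and represses exons, had a log2 fold change of 0.09 at 4 h and -0.37 at 24 h, and HNRNPL, which binds CA repeats, had 0.11 and -0.44. The change between the times was called for both, at -0.46 ± 0.087 for PTBP1 and -0.55 ± 0.076 for HNRNPL (edgeR, adjusted p = 3e-04 and 1.1e-05). HNRNPD (AUF1), which binds AU-rich elements and affects message decay, had -0.13 and -0.47, and its relative HNRNPDL had -0.15 and -0.48. ELAVL1 (HuR), a stabiliser of AU-rich messages, followed the same course. It stood at 204, 194 and 191 CPM in DMSO and 192, 185 and 173 CPM in tunicamycin at 4 h, then at 178, 173 and 169 against 143, 141 and 116 CPM at 24 h. The log2 fold changes were -0.10 ± 0.068 and -0.38 ± 0.069 (edgeR, adjusted p = 0.29 and 9.9e-05). Over 34 alternative settings the 24 h value ran from -0.42 to -0.25 and stayed called. In HEK293T it stood at 178, 172 and 178 CPM in DMSO and 163, 171 and 159 CPM in tunicamycin (-0.10 ± 0.068, edgeR, adjusted p = 0.32). ELAVL1 lies at chr19:7958573-8005659 on GRCh38.

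HNRNPR and SYNCRIP (hnRNP Q) are close relatives that travel with messages in the cytoplasm as well as binding them in the nucleus. HNRNPR stood at 354, 361 and 395 CPM in DMSO and 320, 319 and 324 CPM in tunicamycin at 4 h (-0.20 ± 0.060, edgeR, adjusted p = 0.0095). At 24 h it stood at 247, 240 and 260 CPM in DMSO and 192, 199 and 217 CPM in tunicamycin (-0.30 ± 0.061, edgeR, adjusted p = 0.00034). The groups did not overlap at either time, and the 4 h call was lost without DMSO replicate 3 (-0.16). In HEK293T it stood at 447, 456 and 444 CPM in DMSO and 395, 393 and 419 CPM in tunicamycin (-0.16 ± 0.060, edgeR, adjusted p = 0.056), and 11 of 34 alternative settings called it lower, with values down to -0.26. SYNCRIP fell by 0.25 and 0.20 in OCI-AML3 and its value in HEK293T was -0.11. The 24 h call of SYNCRIP was lost without DMSO replicate 1 or 2 or tunicamycin replicate 1 or 2, with values from -0.14 to -0.133. HNRNPR lies at chr1:23303771-23344336 on GRCh38.

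HNRNPU (SAF-A), a scaffold protein that binds both chromatin and RNA, was one of 4 members called in none of the 3 comparisons, with HNRNPA0, TRA2A and TRA2B, where 29.1% of all genes were called in none. Its libraries held 1110, 1240 and 1250 CPM in DMSO and 1150, 1060 and 1050 CPM in tunicamycin at 4 h. They held 1090, 1070 and 1010 against 1000, 962 and 1020 CPM at 24 h, which also overlap. In HEK293T they held 1560, 1640 and 1690 against 1470, 1460 and 1460 CPM, which do not (-0.16 ± 0.062, edgeR, adjusted p = 0.067). Some of 34 alternative settings called it lower: 4 at 4 h (to -0.24), 6 in HEK293T (-0.19 to -0.14) and 1 at 24 h in OCI-AML3, where the value was -0.42 with the GC and length trend removed. Its relatives HNRNPUL1 and HNRNPUL2 fell by 0.23 and 0.39 at 24 h in OCI-AML3, with values of -0.16 and 0.08 in HEK293T. The 24 h value of HNRNPUL2 in OCI-AML3 ran from -0.46 to -0.24 over 34 alternative settings and stayed called. HNRNPU lies at chr1:244840638-244864560 on GRCh38, shares 3502 exonic bases with COX20 on the opposite strand, and strand use in the counting was not given in the sources used here. TRA2A and TRA2B, which promote exon inclusion through GAA-rich enhancers, had values between -0.13 and 0.05 in the 3 comparisons.

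The members that rose were fewer. HNRNPLL, a regulator of CD45 exon choice in lymphocytes, stood at 53.2, 53.3 and 52.2 CPM in DMSO and 73.4, 66.5 and 70.3 CPM in tunicamycin at 4 h (0.41 ± 0.064, edgeR, adjusted p = 2.7e-05). PCBP2, which binds C-rich RNA, stood at 457, 434 and 442 CPM in DMSO and 594, 545 and 556 CPM in tunicamycin (0.35 ± 0.061, edgeR, adjusted p = 9.6e-05). Both rises held in every one of 34 alternative settings. At 24 h PCBP2 overlapped between the groups (-0.09 ± 0.061, edgeR, adjusted p = 0.2), and its DMSO level was by then higher than at 4 h by 0.37 on the log2 scale. At 24 h HNRNPLL rose by 0.23, PTBP3 by 0.36 and RBM39 by 0.22, and none of these 3 calls was left once the trend of fold change with GC content and length was removed (0.00, 0.04 and 0.04).

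RBM39, a U2AF-related protein that helps define 3′ splice sites, stood at 233, 267 and 282 CPM in DMSO and 263, 269 and 275 CPM in tunicamycin at 4 h, which overlap. At 24 h it stood at 203, 214 and 193 CPM in DMSO and 221, 224 and 263 CPM in tunicamycin (0.22 ± 0.077, edgeR, adjusted p = 0.022). The call was lost without tunicamycin replicate 3 (0.17). In HEK293T it stood at 370, 357 and 379 CPM in DMSO and 408, 411 and 424 CPM in tunicamycin, with no overlap (0.17 ± 0.075, edgeR, adjusted p = 0.11), and 1 of 34 alternative settings, with only the HEK293T libraries in the fit, called it higher (0.18). These are gene totals, and isoforms of RBM39 are not separated. RBM39 lies at chr20:35701347-35742312 on GRCh38.

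In HEK293T at 24 h, 12 members fell and 0 rose. The background was 13.1% of genes lower, 12.6% higher and 2.13% past both thresholds, and again no member passed both. DESeq2 called 1 member higher, and with only the 6 HEK293T libraries in the fit 2 members were higher and 19 lower, where 5783 of the 14012 genes were called against 3606 with all libraries. Without DMSO replicate 3, or without tunicamycin replicate 2, 7 members were lower. Libraries did not overlap for 23 members, 21 of them lower, where 49.1% of genes did not overlap. The median was -0.15, against -0.01 for all genes, and 24 of 32 values were negative. After RBM12, the largest falls were HNRNPM at 0.35, HNRNPF at 0.35 and TARDBP at 0.32 on the log2 scale. HNRNPM binds GU-rich RNA, and HNRNPF binds G-tracts.

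HNRNPA2B1, HNRNPF, HNRNPM and TARDBP fell in all 3 comparisons, 4 of 32 members where 3.85% of all genes did so. HNRNPF fell by 0.17, 0.28 and 0.35 and HNRNPM by 0.16, 0.16 and 0.35 on the log2 scale. HNRNPM was called narrowly in OCI-AML3 (edgeR, adjusted p = 0.041 and 0.036), and 17 and 12 of the 21 omissions of 1 library ended those calls, among them DMSO replicates 2 and 3 of that time, with values from -0.16 to -0.12 at 4 h and from -0.13 to -0.08 at 24 h. With the GC and length trend removed, its 24 h value turned to 0.01. HNRNPH1, which binds G-tracts, fell by 0.23 at 4 h and by 0.25 in HEK293T, with -0.11 at 24 h in OCI-AML3. HNRNPH2, its X-linked relative, fell by 0.43 at 4 h and by 0.19 in HEK293T, also with -0.11 at 24 h. HNRNPH2 shares 362 exonic bases with the readthrough gene RPL36A-HNRNPH2, and with that gene's counts added its values were -0.28 at 4 h and 0.07, no longer called, in HEK293T. HNRNPK, which binds C-rich RNA and DNA, had -0.04 at 4 h and fell by 0.17 at 24 h in each line. RBMX had 0.06 at 4 h and fell by 0.17 and 0.16 at 24 h. PCBP1 had -0.12, fell by 0.18 at 24 h in OCI-AML3, and had -0.12 in HEK293T.

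Calls near the threshold also rested on single libraries. At 4 h the call of HNRNPF was lost without DMSO replicate 1 or 3 or tunicamycin replicate 2 or 3 (-0.16 to -0.14), and that of HNRNPH1 without DMSO replicate 2 or 3 or tunicamycin replicate 1 or 2 (-0.22 to -0.18). At 24 h in OCI-AML3 the calls of HNRNPK (-0.14 to -0.11), PCBP1 (-0.14 to -0.09) and RBMX (-0.14 to -0.11) were each lost without any 1 DMSO library of that time, any 1 HEK293T library, 2 or 3 of the tunicamycin libraries left out singly, or untreated replicate 2. That of HNRNPUL1 was lost without DMSO replicate 1 or 2, tunicamycin replicate 2 or 3, or any 1 HEK293T library (-0.18 to -0.13). In HEK293T the calls of HNRNPH1 (-0.25 to -0.23), HNRNPH2 (-0.17 to -0.16), HNRNPK (-0.18 to -0.16) and RBMX (-0.16 to -0.13) were each lost without DMSO replicate 3 or tunicamycin replicate 2, and all but that of HNRNPH2 without tunicamycin replicate 1 too. All of these values stayed negative. Over 34 alternative settings, 7 of the 13 falls at 4 h were kept in every one: HNRNPA2B1, HNRNPAB, HNRNPH2, HNRNPH3, RBM12, TARDBP and SYNCRIP. At 24 h 14 of 21 were kept, among them HNRNPA2B1, HNRNPAB, HNRNPC, HNRNPD, HNRNPL, PTBP1 and ELAVL1, and in HEK293T 7 of 12 were kept, HNRNPA2B1, HNRNPD, HNRNPF, HNRNPL, HNRNPM, RBM12 and TARDBP.

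Whether the tunicamycin effect changed between 4 and 24 h in OCI-AML3 was tested as an interaction. It was called for 12 members, 4 with a higher value at 24 h and 8 with a lower one, against 15.1% and 20.3% of all genes. The 4 were RBM12 (0.72), TARDBP (0.55), HNRNPH3 (0.48) and HNRNPH2 (0.33), which with HNRNPAB had the lowest values at 4 h. The 8 were HNRNPL, PTBP1, PCBP2, HNRNPC, HNRNPD, HNRNPDL, ELAVL1 and RBMX, from -0.55 to -0.23. With overlapping genes added, the value was -0.06 for RBM12 and 0.22 for HNRNPH2, neither called. Of the 21 omissions of 1 library, 8 ended the call of HNRNPC (-0.34 to -0.27), 3 that of HNRNPDL (-0.27 to -0.247), 14 that of ELAVL1 (-0.28 to -0.16) and 11 that of RBMX (-0.19 to -0.18). Between HEK293T and OCI-AML3 at 24 h the effect differed for 11 members, 9 higher and 2 lower in HEK293T, against 15.9% and 10.9% of genes. The 9 were HNRNPA1, HNRNPA3, HNRNPAB, HNRNPD, HNRNPDL, HNRNPH3, HNRNPUL2, PCBP2 and ELAVL1, and the 2 were RBM12 and PTBP3. Only HNRNPAB, HNRNPDL and HNRNPH3 kept that call in every one of 34 alternative settings. The number of members called was 5 without HEK293T DMSO replicate 1 or tunicamycin replicate 1.

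Related genes did not always move in step, so the log2 ratio of CPM within 15 pairs was taken in each library. These ratios are descriptions with no test of their own. PTBP1 over PTBP3 stood at 3.25 ± 0.067 in DMSO and 2.52 ± 0.205 in tunicamycin at 24 h in OCI-AML3 (SD, n = 3), with no overlap, while it overlapped at 4 h and in HEK293T. With the GC and length trend removed, the 24 h fold changes were -0.20 for PTBP1 and 0.04 for PTBP3, closer to each other than the -0.37 and 0.36 above. HNRNPL over HNRNPLL was lower in tunicamycin with no overlap in all 3 comparisons, by 0.30, 0.68 and 0.38. With the trend removed, the 24 h fold change of HNRNPLL in OCI-AML3 was 0.00, against 0.23 without that step. That of HNRNPL lay between -0.46 and -0.36 under every alternative. PCBP1 over PCBP2 was lower at 4 h by 0.47 and in HEK293T by 0.27, and overlapped at 24 h in OCI-AML3. HNRNPH1 over HNRNPH3 was higher in tunicamycin in OCI-AML3, by 0.61 and 0.24, and lower in HEK293T, by 0.29. HNRNPA1 over HNRNPA2B1 was higher in all 3, by 0.15, 0.17 and 0.31. TRA2A over TRA2B moved by 0.15, 0.12 and 0.14, and its groups overlapped at 24 h in OCI-AML3.

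**Figure D3:**
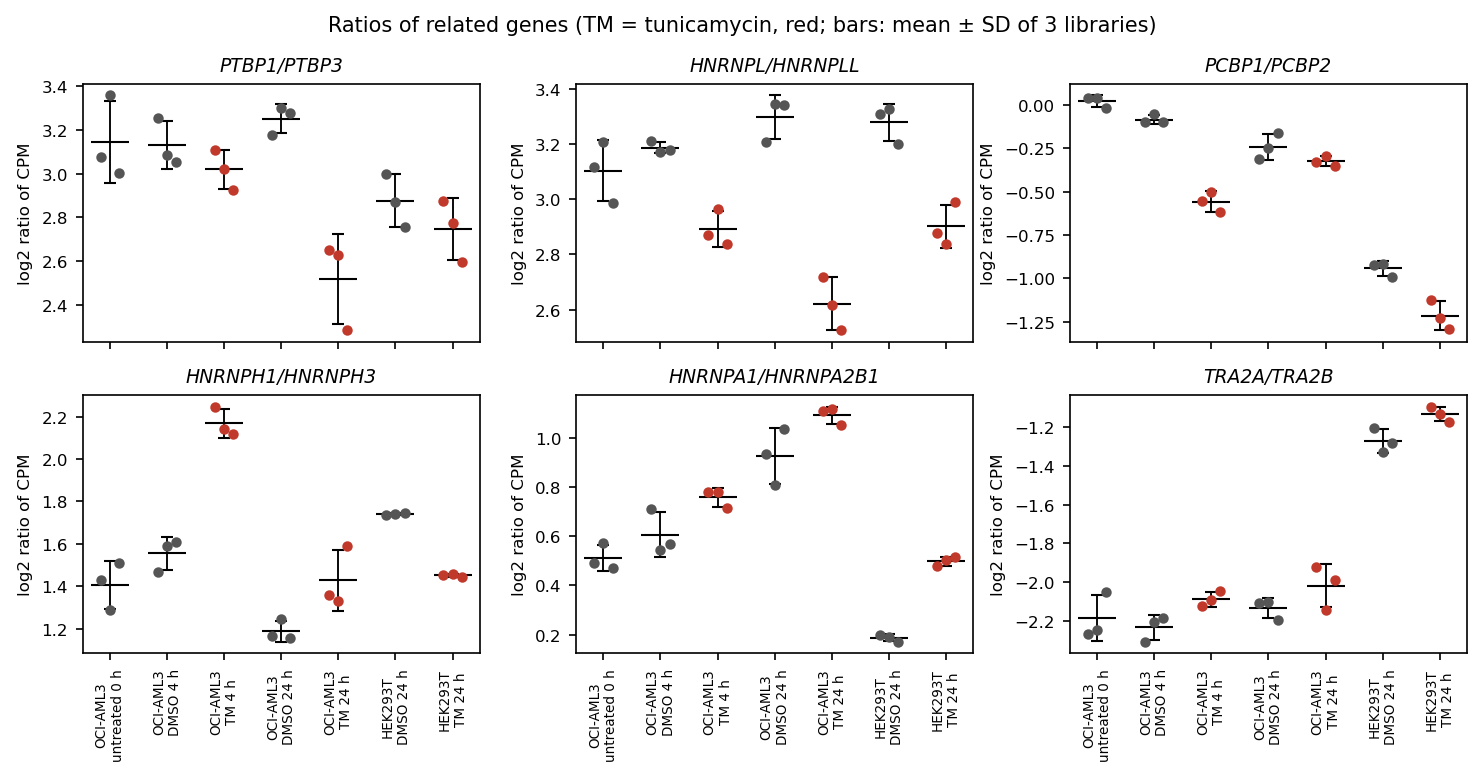
Log2 ratio of CPM (y axis) for 6 pairs of related members in each of the 21 libraries by group (x axis), with tunicamycin libraries in red and the mean ± SD of 3 libraries as bars. The axes do not start at 0. PTBP1/PTBP3 is lowest in tunicamycin at 24 h in OCI-AML3, at 2.52, and HNRNPH1/HNRNPH3 is highest in tunicamycin at 4 h, at 2.17.

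Time in culture also moved these genes. Between the DMSO libraries of OCI-AML3 at 24 h and 4 h, 20 members fell, against 21.6% of all genes, and 3 rose, 23 called in all against 42.6% of genes in either direction. The median of the members was -0.19, against -0.02 for all genes. The largest falls were TRA2B at 0.71, TARDBP at 0.66, TRA2A at 0.62, HNRNPR at 0.57 and HNRNPH1 at 0.53 on the log2 scale. With the GC and length trend removed, these 5 values were -0.49, -0.44, -0.46, -0.30 and -0.27, and 8 of the 23 calls were lost. PCBP2 rose by 0.37, HNRNPC by 0.29 and PCBP1 by 0.21, with the call of HNRNPC lost without 4 h DMSO replicate 2 or 3 (0.22 to 0.24). The call of PCBP1 was lost without TMM scaling (0.09) and with the GC and length trend removed (0.08). TRA2B stood at 363, 326 and 343 CPM at 4 h and 203, 200 and 226 CPM at 24 h. This comparison shares its DMSO libraries with both tunicamycin comparisons of the line, so their values cannot be read as separate evidence. A change with culture density or medium over those hours cannot be told apart from time itself.

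The lines also differed in the balance of these genes without tunicamycin. In DMSO at 24 h, 19 members were higher and 7 lower in HEK293T than in OCI-AML3, against 40.5% and 42.2% of all genes. Some of these directions turned under other settings. With the GC and length trend removed, 7 of the 26 calls turned to the opposite direction (HNRNPA1, HNRNPD, HNRNPU, PTBP1, RBMX, TRA2B and SYNCRIP), and the members' median went from 0.23 to -0.12. With overlapping genes added, RBM12 turned from 0.78 to -0.18. HNRNPH1 stood at 369, 379 and 346 CPM in OCI-AML3 and 986, 1020 and 1050 CPM in HEK293T (1.48 ± 0.080, edgeR, adjusted p = 4.3e-14). TRA2A, HNRNPA3, HNRNPDL and HNRNPA2B1 were higher in HEK293T by 1.10, 1.01, 0.95 and 0.95 on the log2 scale. With the trend removed, the value was 0.65 for HNRNPH1, 0.75 for TRA2A, 0.23 for HNRNPA3, 0.82 for HNRNPDL and 0.50 for HNRNPA2B1. HNRNPUL2 stood at 336, 307 and 244 CPM in OCI-AML3 and 80, 88.4 and 79.9 CPM in HEK293T (-1.84 ± 0.096, edgeR, adjusted p = 2.7e-14). PCBP1 was lower in HEK293T with a log2 fold change of -1.18 ± 0.059. HNRNPUL2 shares 2391 exonic bases with the readthrough gene HNRNPUL2-BSCL2. HNRNPLL, HNRNPK, HNRNPL, ELAVL1, PTBP3 and HNRNPC were not called, with values from -0.18 to 0.08. The lines were grown in different media, which cannot be told apart from the line.

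**Figure D4:**
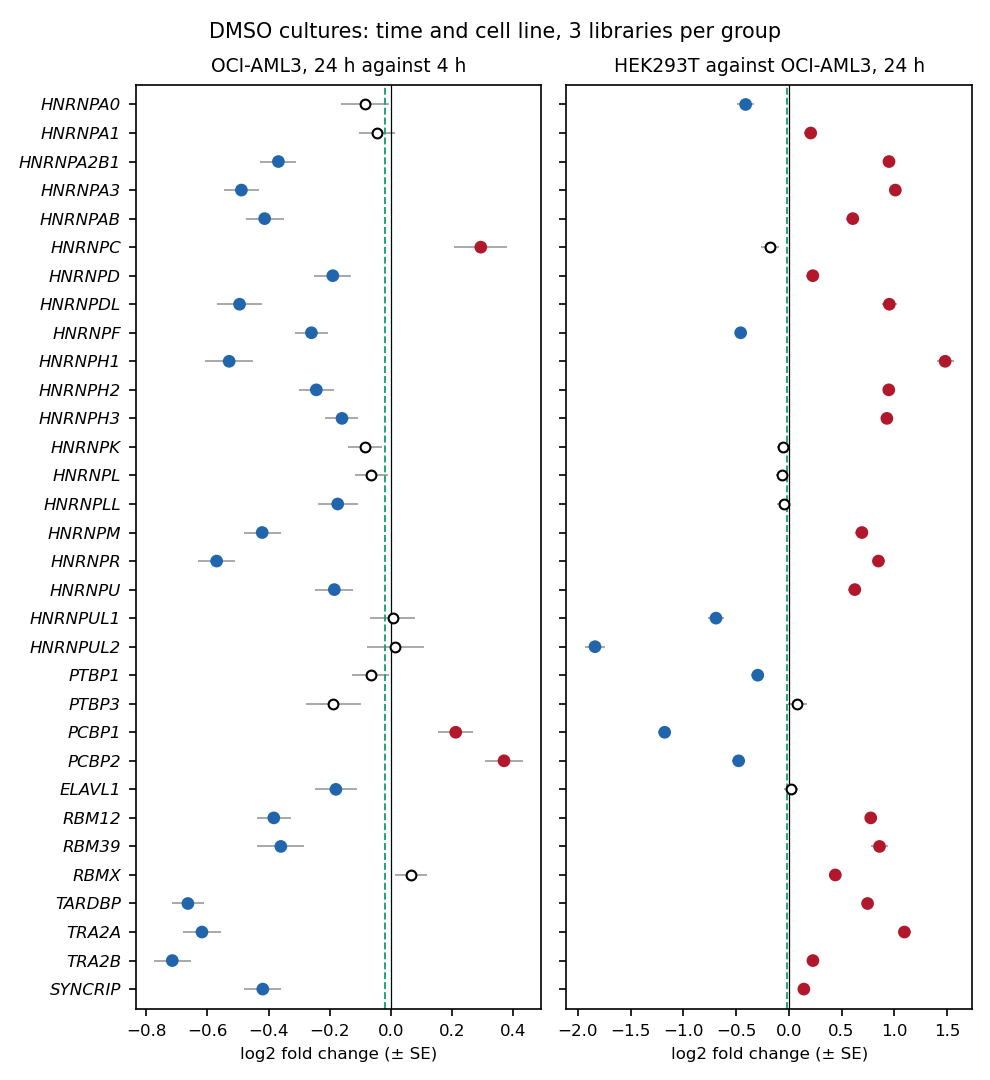
Log2 fold change (x axis, ± SE, with a separate scale in each panel) of each of the 32 members (y axis) between DMSO libraries, for 24 h against 4 h in OCI-AML3 (left) and HEK293T against OCI-AML3 at 24 h (right). Filled points passed the edgeR test (blue lower, red higher), open points did not, and the dashed line is the median of all genes tested. TRA2B, TARDBP and TRA2A lie furthest left with time, and HNRNPH1 and HNRNPUL2 mark the ends of the difference between the lines, at 1.48 and -1.84.

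A wider set of splicing regulators was read beside the members. A list of 44 other regulators, among them the CELF, MBNL, RBM and FUBP families, had 43 genes matched to 1 row each and 40 tested. At 4 h, 7 rose and 5 fell, with a median of 0.06, where the members had 2 and 13. These were 17.5% and 12.5% of the list, where 18.5% and 18.9% of all genes were called. At 24 h in OCI-AML3, 11 rose and 11 fell (median 0.01), where 23.5% and 27.7% of all genes did so. In HEK293T 5 rose and 9 fell (median -0.12, against -0.15 for the members), where 12.6% and 13.1% of all genes did so. In DMSO over time 4 rose and 20 fell (median -0.23, against -0.19), where 21% and 21.6% of all genes did so. MBNL2, of the muscleblind family that binds YGCY motifs, rose by 1.62, 1.40 and 1.49 on the log2 scale in the 3 comparisons. RBM14, a paraspeckle protein, fell by 0.78 at 24 h in OCI-AML3 and by 0.49 in HEK293T. These counts stand side by side as descriptions, and the difference between the lists was not tested. Both lists were chosen with earlier results of these data known.

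The enzymes and importins that act on hnRNPs were read from a list of 7 genes. Transportin carries proteins such as HNRNPA1 into the nucleus, and arginine methyltransferases modify their RGG repeats. The list holds the transportin genes TNPO1 and TNPO2. TNPO2 fell in all 3 comparisons, by 0.56, 0.54 and 0.29 on the log2 scale (edgeR, adjusted p = 1.8e-06, 2.9e-06 and 0.0039). TNPO1 was not among the genes called at 24 h in either line, so the fall of TNPO2 does not stand for both. PRMT1, the main enzyme for asymmetric dimethylarginine, fell by 0.86 at 24 h in OCI-AML3, and CARM1 fell by 0.83. PRMT5, the main enzyme for symmetric dimethylarginine, rose by 0.27 at 4 h and fell by 0.32 at 24 h and by 0.26 in HEK293T. In all, 1 of the 7 rose and 2 fell at 4 h, 4 fell at 24 h and 2 fell in HEK293T. Of all genes, 18.5% were higher and 18.9% lower at 4 h. At 24 h, 27.7% were lower in OCI-AML3 and 13.1% in HEK293T.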

How the data were processed

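The authors sequenced poly-A enriched libraries as paired-end reads, trimmed them, aligned them with STAR to GRCh38 (hg38) and deposited expected counts per gene from RSEM with an Ensembl annotation. The deposited expected counts are estimates that need not be whole, and reads shared by related genes are divided between them by model. Here they were rounded and tested with edgeR 4.0.16 (R 4.3.3) by quasi-likelihood on 7 group means with TMM scaling, on genes at 1 CPM or more in at least 8 libraries. P-values were adjusted by Benjamini-Hochberg over all 14012 genes, and 0.05 was the threshold. CPM are TMM-scaled. The SE was taken as the size of the log2 fold change over the root of its F statistic. Positions and exon lengths are from GENCODE release 44 on GRCh38. Limma 3.58.1 (voom) and DESeq2 1.42.0 were alternatives, with other scalings, filters, a replicate block and each library left out. The scripts were tested on simulated data.

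Every member is named, and values of every library in the 3 tunicamycin comparisons are given for members called with a log2 fold change of at least 0.5 in size in any of them and for HNRNPA1, HNRNPC, HNRNPR, HNRNPU, ELAVL1 and RBM39. From the other lists up to 3 called genes at each end may be named, and TNPO1 is named beside TNPO2. The members and lists were chosen with earlier results of these data known. MATR3, with 2 rows, was left out. Some genes of the lists are not reported here. All 21 columns were assigned to samples, and no 2 libraries of the same group agreed within sampling noise. Libraries of different groups were not compared in this way. In OCI-AML3, 2 libraries stood apart from their group by the chi-square per gene between libraries. For 4 h DMSO replicate 1 it was 19.6 and 19, against 3.84 between replicates 2 and 3. For 24 h tunicamycin replicate 3 it was 15.5 and 22.5, against 7.57 between replicates 1 and 2. Without that tunicamycin library 5822 genes were called at 24 h, against 7163 with it. Of 60671 gene IDs, 60401 had a symbol.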

Additional observations from a re-analysis of the deposited data

Results flagged for a closer look

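The tunicamycin effect in OCI-AML3 differed between 24 h and 4 h for 12 members by a test of the difference itself (edgeR interaction, adjusted p at most 0.05), 4 higher and 8 lower, against 15.1% and 20.3% of all genes. On the log2 scale, 24 h minus 4 h, the 4 members above 0 were RBM12 at 0.716, TARDBP at 0.548, HNRNPH3 at 0.480 and HNRNPH2 at 0.327. With overlapping genes added, neither RBM12 (-0.059) nor HNRNPH2 (0.220) was called. The 8 below 0 were HNRNPL at -0.550, PTBP1 at -0.461, PCBP2 at -0.443, HNRNPC at -0.373, HNRNPD at -0.337, HNRNPDL at -0.328, ELAVL1 at -0.283 and RBMX at -0.230. The DMSO libraries of the same line also differed between 4 and 24 h for 23 members, against 42.6% of all genes, and the part of those controls in the differences was not tested.

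The effect at 24 h differed between the lines for 11 members by the same kind of test, 9 higher and 2 lower in HEK293T, against 15.9% and 10.9% of all genes. HEK293T minus OCI-AML3, the values were HNRNPDL at 0.473, HNRNPUL2 at 0.464, HNRNPAB at 0.397, HNRNPH3 at 0.391, ELAVL1 at 0.281, HNRNPA3 at 0.259, PCBP2 at 0.251, HNRNPD at 0.243 and HNRNPA1 at 0.242, with RBM12 at -0.523 and PTBP3 at -0.388. With overlapping genes added, RBM12 was at -0.073 and not called, and with the GC and length trend removed PTBP3 was at -0.150 and not called. HNRNPUL2 lost its call in 7 of the 21 omissions of 1 library (0.313 to 0.399). For HNRNPA1, HNRNPA3, HNRNPD, PCBP2 and ELAVL1 between 11 and 13 of the 21 omissions of 1 library ended the call.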

How the results depend on the processing

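The members' median stayed below 0 in all 3 tunicamycin comparisons under every alternative. Leaving out 1 library in turn gave 9 to 14 members lower at 4 h, 14 to 21 at 24 h and 7 to 14 in HEK293T, and 5 to 11 members whose effect differed between the lines. With only the groups compared in the fit, 7 members were lower at 4 h, 14 were lower and 2 higher at 24 h in OCI-AML3, and in HEK293T 2 were higher and 19 lower. In those fits 4594, 5874 and 5783 of all genes were called, against 5249, 7163 and 3606 with all libraries. In HEK293T 1 was higher with DESeq2 and 1 with the GC and length trend removed. At 24 h in OCI-AML3, 1 was higher with no filter and 0 with the trend removed. The effect differed between the lines for 7 members with DESeq2 size factors, 6 without TMM, 6 with no filter, 7 with a filter of 3 libraries, 6 with only those groups and 7 without the 10 most abundant genes. It differed for 13 with the GC and length trend removed, 12 with limma and 12 with the replicate block, more than the 11 above. The cause was not tested.

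Some single values changed sign. At 4 h, leaving out 1 library gave HNRNPC values from -0.128 to 0.082 and RBM39 values from -0.031 to 0.106. Without TMM, HNRNPA1 in HEK293T was -0.01 and PTBP1 in HEK293T against OCI-AML3 was 0.05, and with no filter SYNCRIP there was -0.037. With overlapping genes added, HNRNPH2 was 0.07 in HEK293T and 0.081 for DMSO over time, and RBM12 was -0.059 for the change between the times, -0.177 between the lines and 0.043 for DMSO over time. The trend removal, chosen after seeing the data like the addition of overlapping genes and the omission of the most abundant ones, gave HNRNPLL 0.00, HNRNPM 0.013 and PCBP1 0.048 at 24 h in OCI-AML3. There it also moved called values by over 1.5 times: HNRNPR to -0.641, HNRNPA3 to -0.543, SYNCRIP to -0.509, RBMX to -0.402, HNRNPD to -0.748, HNRNPC to -0.646, TARDBP to -0.459, HNRNPK to -0.270, and, closer to 0, HNRNPAB to -0.316 and PTBP1 to -0.20. The trend removal brought HNRNPU (-0.421) past the threshold there, and the addition of overlapping genes did so for RBM12 (-0.322). The trend removal gave HNRNPA1 -0.04 and HNRNPH3 -0.033 in HEK293T, and HNRNPD 0.077, HNRNPLL 0.079 and HNRNPU 0.04 for DMSO over time. Between the lines it gave HNRNPA1 -0.12, HNRNPD -0.586, HNRNPR -0.061, HNRNPU -0.198, PTBP1 0.115, RBMX -0.204, TRA2B -0.321 and SYNCRIP -0.697.

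The replicate numbers did not pair the samples, since same-numbered libraries had correlations of their deviations from -0.17 to 0.17 in the tunicamycin comparisons. With the replicate block 15, 24 and 13 members were called, against 15, 24 and 12 without it. Library sizes without TMM moved the median of all genes between the lines to 0.33, and the members' median there to 0.57. With 3 libraries a group, a value that was not called is not shown to be 0: HNRNPUL2 at 4 h stood at -0.215 with an SE of 0.092.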
